A study of Canis lupus familiaris with 14 samples.

Results

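Chromosome 31 of the dog was examined as a set of genes in whole blood, because gain of this chromosome is a common finding in canine lymphoma, a cancer of lymphocytes. Members were all genes of chromosome 31 with at least 2 exon intervals after overlapping intervals were merged. They numbered 338 of the 30951 genes in the deposited table, and 84 further genes of the chromosome had a single interval. The rule used position and exon structure only, but it was set with earlier results of these data known.

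RNA was sequenced from the blood of 7 dogs with lymphoma and of 7 controls labelled as non-lymphoma disease. The labels give neither breed, age, treatment, type of lymphoma nor the share of tumour cells in the blood, and they do not name the disease of the controls. Each library is labelled as a separate sample, and the p-values rest on how much these libraries vary, part of which may be technical. Total counts ranged from 9845059 to 14831589 in lymphoma and from 13522628 to 21610927 in non-lymphoma libraries.

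Much of dog chromosome 31 corresponds to the human chromosome that is present in an extra copy in Down syndrome. An extra chromosome copy tends to raise the RNA of its genes roughly in step with the number of copies in the cells that carry it, so a mean over many genes is a common readout of such a change. In another dog assembly, UU_Cfam_GSD_1.0, the RefSeq gene table places 13 of 13 symbols looked up on chromosome 31. They include IFNAR1 and IFNAR2, the receptor subunits for type I interferon, IFNGR2 and IL10RB, receptor subunits for interferon gamma and interleukin-10 family cytokines, and RUNX1, a transcription factor needed to form blood stem cells. The deposited table names genes by Ensembl identifier alone, and 0 of its identifiers matched that reference table. Genes are therefore described by position in CanFam3.1, and the blood cell types of these libraries could not be checked by marker genes. DNA copy number was not measured.

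Most members had few or no counts in blood. A filter on low counts left 12836 of the 30951 genes of the whole table for testing, among them 108 of the 338 members (32%). Of the 230 other members, 21 had no count in any library and 209 had at least 1. Over all 230 the median sum was 6 counts in the 14 libraries together. The most abundant lay at 28759060 to 28814763, with 1 to 8 counts in lymphoma and 13 to 157 counts in non-lymphoma libraries. Of the 230 untested members, 8 were detected in more lymphoma than non-lymphoma libraries and 177 in more non-lymphoma than lymphoma libraries. That is 3.48% and 77%, close to the 4.53% and 74.5% of the 18115 untested genes of the whole table. Members with at least 1 count numbered 145 ± 13.4 in lymphoma and 211 ± 42.4 in non-lymphoma libraries (n = 7 each, ± SD; two-sided exact permutation p = 0.00408). With every library thinned to the smallest total, 143 ± 11.4 and 191 ± 32.5 members had a count (n = 7 each, ± SD; two-sided exact permutation p = 0.00524). Detection was lower over the whole table too, with 16657 ± 1079 genes in lymphoma and 21341 ± 2610 genes in non-lymphoma libraries (n = 7 each, ± SD; two-sided exact permutation p = 0.00175). Total counts were also lower in lymphoma, and the part of depth in single genes was not tested beyond the thinned values.

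The mean level of chromosome 31 was not raised in lymphoma blood. It was slightly lower. Over the 108 tested members the mean log2 CPM (CPM, the count relative to the TMM-scaled library total) was 3.48 ± 0.12 in lymphoma and 3.64 ± 0.03 in non-lymphoma blood (n = 7 each, ± SD). The difference was -0.15, also after thinning to the smallest total (two-sided exact permutation p = 0.00583, adjusted p = 0.0189 over 39 chromosomes). In bulk blood, fewer cells of a type and less RNA per cell cannot be told apart.

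A second measure took the mean over the tested members minus the mean over all tested multi-exon genes of the other chromosomes, so that scaling between libraries falls out. This relative level was lowest at -0.45, with a median of -0.32 and a highest value of -0.13, in lymphoma libraries. In non-lymphoma libraries the lowest was -0.28, the median -0.22 and the highest -0.06. Below the whole non-lymphoma range lay 6 of 7 lymphoma libraries, while lymphoma replicate 3 lay above all but 1 of them. The group means were -0.33 ± 0.10 in lymphoma and -0.20 ± 0.07 in non-lymphoma libraries (n = 7 each, ± SD), a difference of -0.12 (two-sided exact permutation p = 0.0169, adjusted p = 0.0284). The difference stayed at -0.12 but no longer passed without lymphoma replicate 2 (adjusted exact p = 0.0699) or 7 (adjusted exact p = 0.0664). The same was seen without non-lymphoma replicate 4 (adjusted exact p = 0.0505) or 5 (adjusted exact p = 0.0568).

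Set against the mean of the non-lymphoma libraries, lymphoma replicates 1 to 7 differed in relative level by -0.14, -0.25, 0.07, -0.11, -0.12, -0.10 and -0.22. Each non-lymphoma library, set against the mean of the other 6, differed by -0.09 to 0.16. Only lymphoma replicate 3 was higher than the non-lymphoma mean, and by less than non-lymphoma replicate 7 stood above the rest of its own group. No lymphoma library thus had a raised level over the whole chromosome beyond the non-lymphoma spread.

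**Figure D1:**
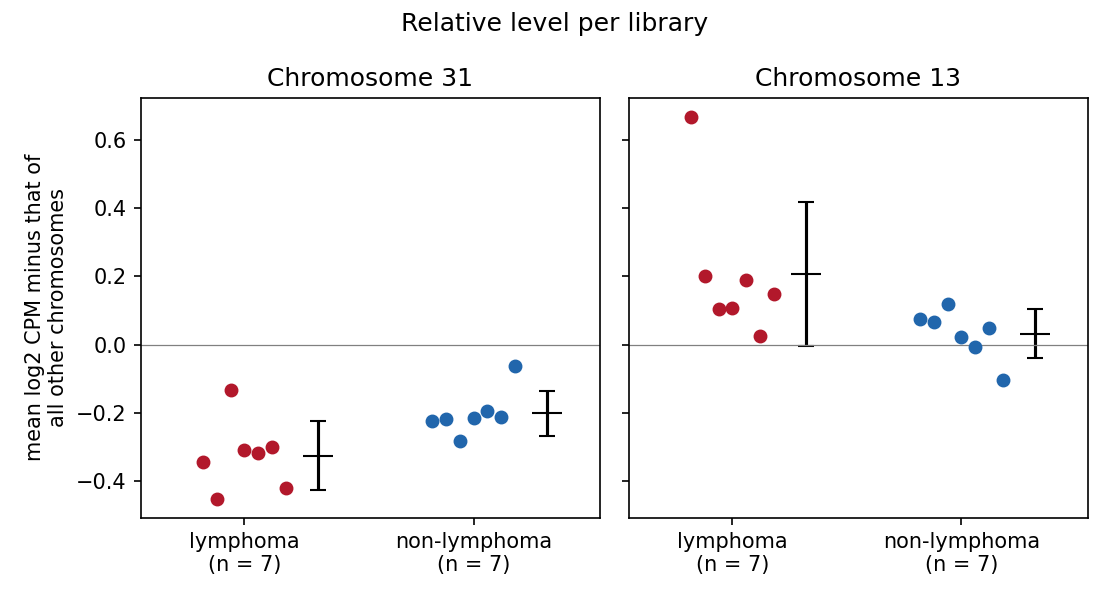
Relative level of chromosome 31 (left) and chromosome 13 (right) in each library, as mean log2 CPM of the tested multi-exon genes minus that of all other chromosomes; points are libraries, bars are the mean ± SD of 7. On chromosome 31, 6 of 7 lymphoma points lie under all non-lymphoma points, and on chromosome 13 lymphoma replicate 1 stands alone at 0.67.

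Libraries whose label is a 5-digit number, 2 lymphoma and 7 non-lymphoma, were also compared alone, since the labels do not say whether the form of the number marks a batch. There the difference in mean level was -0.14 (adjusted exact permutation p = 0.0985) and the difference in relative level was -0.082 (adjusted exact permutation p = 0.361). The smallest p that the 36 assignments there can give is 0.0278 before adjustment. The filter on low counts was applied anew to these libraries, so the tested members could differ. The 5 libraries with the other form of label are all lymphoma, so nothing could be compared among them.

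A shift of this size was not particular to chromosome 31. The relative level passed the same test on 25 of 39 chromosomes. Of these 16 were higher and 9 lower in lymphoma, and differences ran from -0.25 on chromosome 20 to 0.39 on chromosome 36. Chromosome 31 had the fifth lowest difference. Chromosome 13, the other chromosome known to be often gained in canine lymphoma, moved the other way. Its relative level was 0.21 ± 0.21 in lymphoma and 0.03 ± 0.07 in non-lymphoma libraries (n = 7 each, ± SD; adjusted exact permutation p = 0.0239). This difference ranked 32 of 39, counted from the lowest. The difference in mean log2 CPM of chromosome 13, 0.14, did not pass (adjusted exact permutation p = 0.194). Chromosome 31 minus chromosome 13 was -0.52 ± 0.25 in lymphoma and -0.23 ± 0.14 in non-lymphoma libraries (n = 7 each, ± SD), a difference of -0.29 (two-sided exact permutation p = 0.00991). Lymphoma replicate 1 stood far above the others on chromosome 13. Without it the difference was -0.23 (two-sided exact permutation p = 0.014), and within the 5-digit libraries it was -0.15 (two-sided exact permutation p = 0.306).

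**Figure D2:**
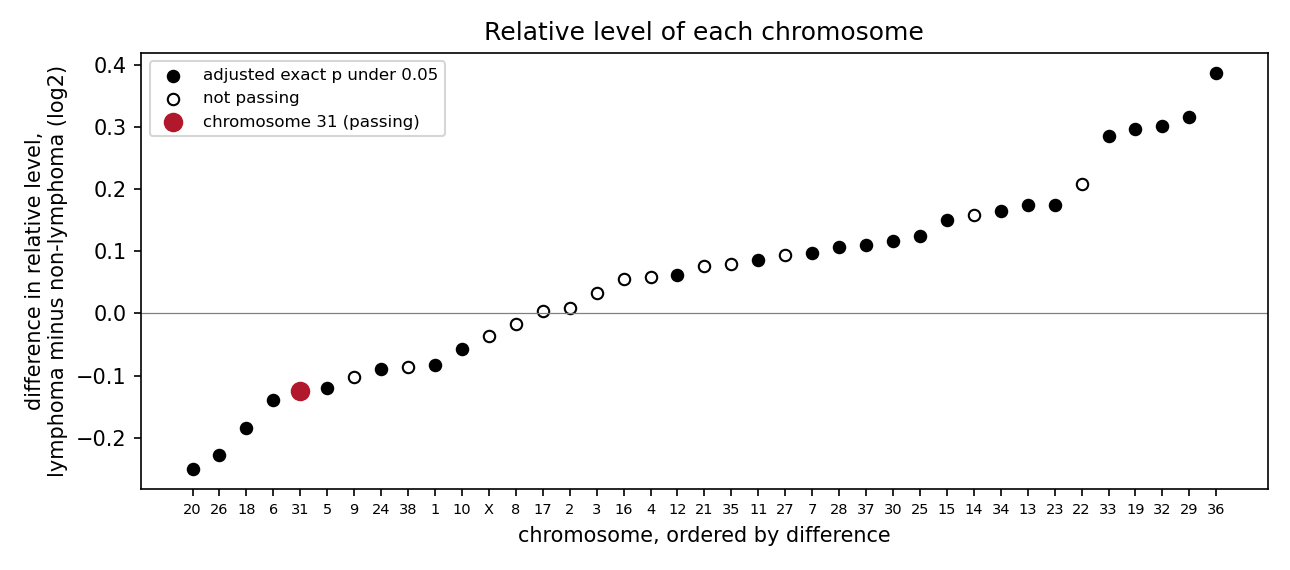
Difference in relative level (lymphoma minus non-lymphoma, log2) of each of 39 chromosomes, in order of the difference; filled points have an adjusted exact permutation p under 0.05. Chromosome 31, the larger red point, lies at -0.12, with 4 chromosomes below it.

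The mean hid differences along the chromosome. Members between 20 and 25 Mb were on average higher in lymphoma, and members between 35 and 40 Mb were lower. The chromosome was divided into segments of 5 Mb by gene midpoint, and 5 of 8 segments held at least 5 tested members. They are numbered S1 (10 to 15 Mb, 9 tested members), S2 (20 to 25 Mb, 10), S3 (25 to 30 Mb, 21), S4 (30 to 35 Mb, 20) and S5 (35 to 40 Mb, 42). The remaining 3 segments held 6 tested members in all, too few to score.

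S2 was higher in lymphoma. Its mean log2 CPM was 5.0 ± 0.16 in lymphoma and 4.70 ± 0.13 in non-lymphoma blood (n = 7 each, ± SD), a difference of 0.31 (two-sided exact permutation p = 0.00117, adjusted p = 0.00291 over 5 segments). Of its 10 tested members 9 had a positive log2 fold change, and 3 of them were called higher. Over all tested genes 47.3% had a positive log2 fold change and 9.21% were called higher. In relative level, 6 of 7 lymphoma libraries lay above every non-lymphoma library. Lymphoma replicates 1 to 7 differed from the non-lymphoma mean by 0.31, 0.66, 0.31, 0.23, 0.48, 0.12 and 0.26. Lymphoma replicate 2 was thus the highest and replicate 6 the lowest.

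S5 was lower in lymphoma. Its mean log2 CPM was 3.35 ± 0.32 in lymphoma and 3.78 ± 0.16 in non-lymphoma blood (n = 7 each, ± SD), a difference of -0.43 (two-sided exact permutation p = 0.00117, adjusted p = 0.00291). Of 42 tested members 31 had a negative log2 fold change and 11 a positive one, with 13 called lower and 1 called higher. Over all tested genes 47.3% had a positive log2 fold change, 7.4% were called lower and 9.21% higher. In relative level, lymphoma replicates 1 to 7 differed from the non-lymphoma mean by -0.23, -0.95, -0.14, -0.25, -0.49, -0.18 and -0.61. All 7 were negative, 5 of them lay below every non-lymphoma library, and replicate 2 was the most extreme here too. Lymphoma replicates 2 and 7 were also the libraries with the lowest totals (9846590 and 9845059 counts) and the fewest genes detected (14733 and 15946). With every library thinned to the smallest total, S5 differed by -0.41 (adjusted exact permutation p = 0.00874). What sets these libraries apart was not tested.

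The other segments did not pass. S1 differed by 0.18 (adjusted exact permutation p = 0.363), S3 by 0.019 (adjusted exact p = 0.798) and S4 by -0.20 (adjusted exact p = 0.067). Without lymphoma replicate 3, S3 turned to -0.14 and passed (adjusted exact p = 0.0146), and 3 segments were then lower. S3 was negative in each run that left out 1 lymphoma library, from -0.14 to -0.060. The filter on low counts was applied anew in each such run, so the members averaged could differ as well as the libraries. The part of each was not tested. Without lymphoma replicate 7 or non-lymphoma replicate 1 or 2, 2 segments were lower. With a median over members in place of the mean, S2 differed by 0.28 and S5 by -0.31, and neither passed (adjusted exact p = 0.0874 in both). Without the filter on low counts S2 turned to -0.11 (adjusted exact p = 0.179).

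**Figure D3:**
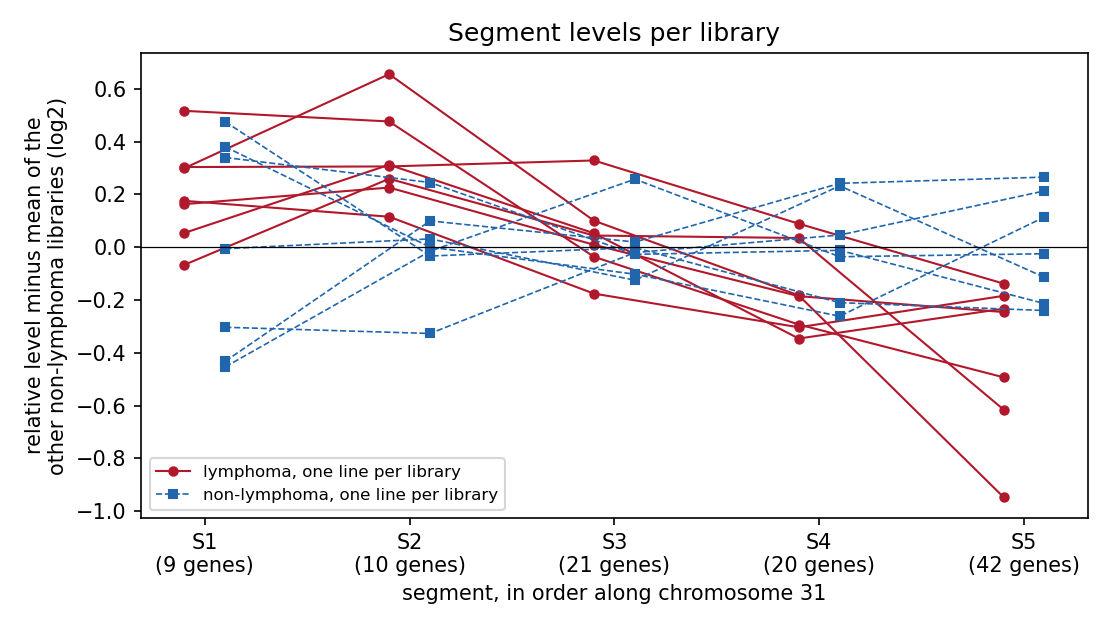
Relative level of segments S1 to S5 in each library, given as the difference from the mean of the other non-lymphoma libraries (log2); red solid lines are the 7 lymphoma and blue dashed lines the 7 non-lymphoma libraries. All lymphoma lines are above 0 at S2 and below 0 at S5, where replicate 2 reaches -0.95.

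S5 minus S2, in relative level, was -1.66 ± 0.45 in lymphoma and -0.91 ± 0.27 in non-lymphoma libraries (n = 7 each, ± SD). The lymphoma libraries spanned -2.51 to -1.21 and the non-lymphoma libraries -1.31 to -0.45, so that 1 lymphoma library lay inside the non-lymphoma range. No p is given, since these segments were picked for their difference. Within the 5-digit libraries S2 differed by 0.28 (two-sided exact permutation p = 0.0556) and S5 by -0.46 (two-sided exact permutation p = 0.0278, the smallest possible there), and neither passed after adjustment (adjusted exact p = 0.0926 and 0.0694). S4 reached the same smallest p there, with a difference of -0.29 (adjusted exact permutation p = 0.0694). The filter on low counts was applied anew to these libraries. S5 there averaged 49 members against 42 above, S4 22 against 20, and S2 10 in both.

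Gene density changed along the chromosome as well. The median number of genes within 0.5 Mb was 11 for tested members of S2 and 30 for those of S5. Across the 108 tested members, Spearman's rho of the log2 fold change was -0.36 with position and -0.37 with that number of neighbours, as a description over genes of the same libraries. It was 0.06 with the average level and 0.16 with the number of exons. After each library's linear trend on gene density was removed, S5 still differed by -0.38 (adjusted exact permutation p = 0.00874). S2 then differed by 0.15 and no longer passed (adjusted exact p = 0.0709), while S4 differed by -0.30 and passed (adjusted exact p = 0.0189).

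With members before 35 Mb only, an alternative chosen after the segments were seen, the relative level turned to 0.056 (adjusted exact permutation p = 0.35). That run leaves out the segment with the largest fall, so a smaller fall was fixed by its choice. The part of single segments in the lower mean was not tested otherwise.

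Single members were tested with edgeR's quasi-likelihood test over 12836 genes of all chromosomes. Of 108 tested members, 8 (7.41%) were called higher in lymphoma at an adjusted p under 0.05, against a background of 9.21% of all tested genes. A further 18 (16.7%) were called lower, against a background of 7.4%. A positive log2 fold change was found in 53 of the 108 members (49.1%) and in 47.3% of all tested genes. The median log2 fold change was -0.01 over the tested members and -0.05 over all tested genes, and the means were -0.13 and 0.00. By a log2 fold of at least 1, 3 members (2.78%) were called higher, against a background of 5.28%, and 11 (10.2%) lower, against 3.2%. Leaving out lymphoma replicate 5 brought the number called higher to 5, and so did leaving out non-lymphoma replicate 4, 6 or 7. Within the 5-digit libraries 1 of the 26 called members was called, and all 26 had the same sign in that subset of the same libraries.

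**Figure D4:**
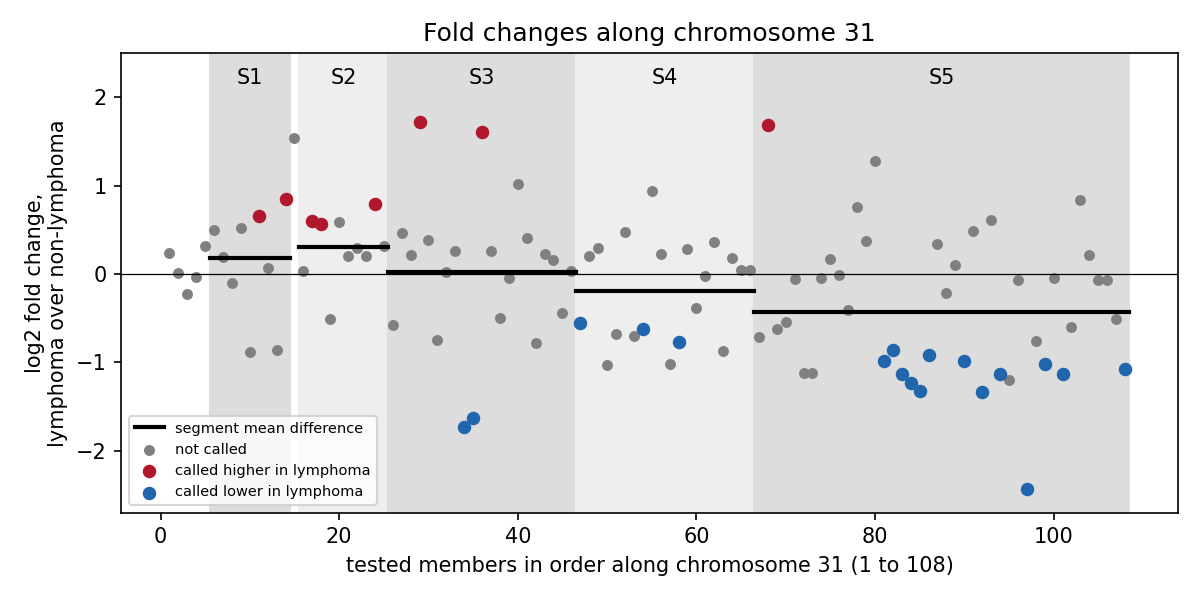
Log2 fold change (lymphoma over non-lymphoma) of the 108 tested members in their order along chromosome 31; shaded blocks are segments S1 to S5, black lines are the segment differences in mean log2 CPM, and coloured points passed an edgeR adjusted p under 0.05. S5 holds 42 of the 108 tested members. Of 18 lower calls, 13 lie in S5, and of 8 higher calls, 7 lie before it.

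Genes that moved against the chromosome mean were sought with limma, on the level of each gene minus the mean of the other tested multi-exon genes of its chromosome. By this relative measure 10 of 108 members (9.26%) were higher in lymphoma, against a background of 8.26% of 11929 genes, and 12 (11.1%) were lower, against a background of 5.63%. Of the 10 higher members 8 were also called higher by edgeR. The other two lay at 27406492, with a relative difference of 0.42 (limma adjusted p = 0.0448), and at 32220152. Leaving out lymphoma replicate 5, lymphoma replicate 7 or non-lymphoma replicate 1 brought the number higher to 6, and leaving out non-lymphoma replicate 5 brought it to 5. The 12 relatively lower members were all among the 18 that edgeR called lower.

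One gene against the mean lay inside the lower end of the chromosome. ENSCAFG00000010167, a gene of 29 exons and 6169 exonic bases on the plus strand at 35860590 to 35951350, was the only member of S5 called higher. It had 121 CPM in the lowest, 397 CPM in the median and 772 CPM in the highest lymphoma library, against 67 CPM, 123 CPM and 257 CPM in non-lymphoma libraries. Of 7 lymphoma libraries 5 lay above every non-lymphoma library, and lymphoma replicates 1 and 7 lay within the non-lymphoma range. Its log2 fold change was 1.68 (SE 0.38, edgeR adjusted p = 0.00975). Relative to the chromosome it was 1.75 higher (SE 0.36, limma adjusted p = 0.00699). Within the 5-digit libraries the log2 fold change was 1.69 (edgeR adjusted p = 0.0897).

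ENSCAFG00000008305, a gene of 6 exons on the minus strand at 14230000 to 14254756, was the strongest riser of S1. It had 27 CPM, 35.8 CPM and 53.1 CPM in the lowest, median and highest lymphoma library, against 14.2 CPM, 22.7 CPM and 27.6 CPM in non-lymphoma libraries. All lymphoma libraries but 1 lay above every non-lymphoma library. The log2 fold change was 0.85 (SE 0.19, edgeR adjusted p = 0.0101), relative to the chromosome 0.99 (SE 0.19, limma adjusted p = 0.00511), and within the 5-digit libraries 0.98 (edgeR adjusted p = 0.107). The second called gene of S1, with 26 exons at 12555595 to 12691694, averaged 100 ± 21.3 CPM in lymphoma and 63.6 ± 14.1 CPM in non-lymphoma blood (n = 7 each, ± SD; log2 fold change 0.66, edgeR adjusted p = 0.021).

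A pair of neighbours in S2 rose together. They lie head to head, 734 bases apart, on the minus strand at 21200337 to 21215975 and on the plus strand at 21216710 to 21248792. The first averaged 33.3 ± 8.29 CPM in lymphoma and 21.9 ± 5.44 CPM in non-lymphoma blood, and the second 47.7 ± 12.2 CPM and 32.1 ± 6.47 CPM (n = 7 each, ± SD). Their log2 fold changes were 0.60 and 0.57 (edgeR adjusted p = 0.0469 and 0.0421). Groups overlapped in both genes. The first call was lost in 9 runs that left out 1 library, namely lymphoma replicates 1, 2, 5 and 7 and non-lymphoma replicates 1, 4, 5, 6 and 7 (edgeR adjusted p up to 0.0923). The second was lost in 9 such runs, with lymphoma replicates 2, 5 and 7 and non-lymphoma replicates 1, 2, 4, 5, 6 and 7 (edgeR adjusted p up to 0.0842).

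The third called gene of S2, with 17 exons at 24061252 to 24075364, averaged 98.4 ± 40.4 CPM in lymphoma and 56.8 ± 13.7 CPM in non-lymphoma blood (n = 7 each, ± SD; log2 fold change 0.79, edgeR adjusted p = 0.0371). This call needed lymphoma replicates 1, 4 and 5 and non-lymphoma replicates 2, 4, 5, 6 and 7, since it was lost without any 1 of them (edgeR adjusted p up to 0.0865). Relative to the chromosome it was 0.88 higher (limma adjusted p = 0.0227), and that call held with each library left out.

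In S3, genes close to each other moved in opposite directions. A gene of 5 exons at 27025709 to 27039028 changed most upward among the tested members. It had 8.43 CPM, 21.5 CPM and 63.1 CPM in the lowest, median and highest lymphoma library, against 1.8 CPM, 7.73 CPM and 18 CPM in non-lymphoma libraries (log2 fold change 1.72, SE 0.47, edgeR adjusted p = 0.0224). Within the 5-digit libraries its log2 fold change was 0.99 and did not pass (edgeR adjusted p = 0.41). Relative to the chromosome it was 1.90 higher (limma adjusted p = 0.0237), a call lost without lymphoma replicate 2 or non-lymphoma replicate 5. The gene of 21 exons at 28134566 to 28161727 had 1.48 CPM, 6.59 CPM and 9.75 CPM, against 0.898 CPM, 2.31 CPM and 3.01 CPM (log2 fold change 1.60, SE 0.36, edgeR adjusted p = 0.0103). In this gene 6 of 7 lymphoma libraries lay above every non-lymphoma library.

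Just before it, a gene of 9 exons on the plus strand at 28020725 to 28049450 was lower in every lymphoma library than in any non-lymphoma library. It had 1.19 CPM, 4.2 CPM and 5.44 CPM in the lowest, median and highest lymphoma library, against 5.77 CPM, 9.81 CPM and 30.4 CPM in non-lymphoma libraries. The log2 fold change was -1.73 (SE 0.41, edgeR adjusted p = 0.0116). The next tested member, at 28056239 to 28075682, was also called lower (log2 fold change -1.63, SE 0.45, edgeR adjusted p = 0.0224).

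Of all tested members, 5 (4.63%) had every lymphoma library below every non-lymphoma library, against a background of 1.75%, and 0 had every lymphoma library above, against 2.03%. Apart from the S3 gene, these lay in S5. ENSCAFG00000031003, a gene of 13 exons on the minus strand at 38473179 to 38514650, had the largest fall. It had 1.2 CPM, 6.9 CPM and 9.03 CPM in the lowest, median and highest lymphoma library, against 12.1 CPM, 25 CPM and 71.1 CPM in non-lymphoma libraries. The groups were 0.41 apart at their nearest point on the log2 CPM scale. Its log2 fold change was -2.43 (SE 0.48, edgeR adjusted p = 0.00577; -1.99 within the 5-digit libraries, edgeR adjusted p = 0.206).

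The remaining members with separate groups had smaller falls. The gene of 14 exons at 37732618 to 37746376 averaged 19.3 ± 5.84 CPM in lymphoma and 36.6 ± 7.38 CPM in non-lymphoma blood (n = 7 each, ± SD; log2 fold change -0.91, edgeR adjusted p = 0.01). The gene of 6 exons at 38028095 to 38036571 averaged 28.1 ± 7.48 CPM and 55.5 ± 14.4 CPM (n = 7 each, ± SD; log2 fold change -0.98, edgeR adjusted p = 0.00707). That of 6 exons at 38558629 to 38591996 averaged 2.83 ± 0.45 CPM and 5.73 ± 1.75 CPM (n = 7 each, ± SD; log2 fold change -1.02, edgeR adjusted p = 0.0104).

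A block of neighbours fell together. Between 37503052 and 37746376, a span of 243 kb that holds 7 members, 6 consecutive tested members were called lower, with log2 fold changes from -1.33 to -0.86. The seventh member was not tested. This was the longest run of calls in one direction on the chromosome, and it was noticed in the data, so no p is given. ENSCAFG00000010642, a gene of 6 exons and 696 exonic bases on the minus strand at 37717955 to 37719546, fell most within it. It had 10.8 CPM, 13.3 CPM and 30.6 CPM in the lowest, median and highest lymphoma library, against 26.8 CPM, 41.7 CPM and 62.7 CPM in non-lymphoma libraries. All lymphoma libraries but 1 lay below every non-lymphoma library. Its log2 fold change was -1.33 with an SE of 0.26 (edgeR adjusted p = 0.00498), and it was the only member called within the 5-digit libraries (log2 fold change -1.83, edgeR adjusted p = 0.0488).

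**Figure D5:**
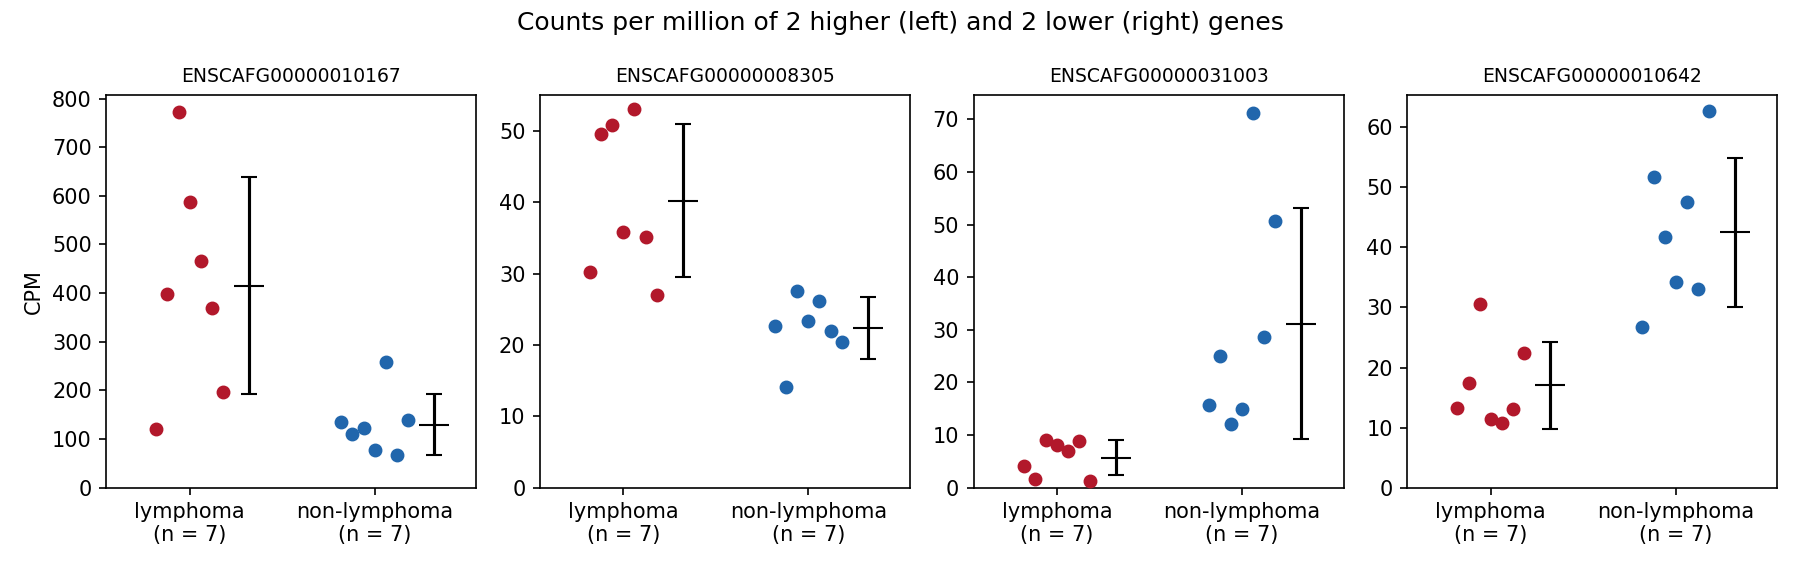
CPM (TMM-scaled) of a pair of genes called higher (left panels) and a pair called lower (right panels) in each library; points are libraries, bars are the mean ± SD of 7, and each axis starts at 0. The lymphoma libraries of ENSCAFG00000031003 reach at most 9.03 CPM, below the lowest non-lymphoma library at 12.1 CPM.

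Next to ENSCAFG00000010642 within the block, a gene of 13 exons on the plus strand at 37685492 to 37707767 and a gene of 3 exons on the minus strand at 37707927 to 37708937 end 159 bases apart. They averaged 44.6 ± 19.6 CPM and 19.2 ± 8.26 CPM in lymphoma, against 97.7 ± 40 CPM and 45.4 ± 20.2 CPM in non-lymphoma blood (n = 7 each, ± SD). Their log2 fold changes were -1.13 and -1.24 (edgeR adjusted p = 0.0173 and 0.0124). Reads were counted without regard to strand, so reads that run past the end of either gene into the other cannot be assigned to one of them. The gene of 15 exons at 37652863 to 37667895 averaged 143 ± 51.9 CPM and 259 ± 76.3 CPM (n = 7 each, ± SD; log2 fold change -0.86, edgeR adjusted p = 0.0335). Its call was lost in 9 runs that left out 1 library, namely lymphoma replicates 1, 2, 4, 5 and 7 and non-lymphoma replicates 2, 5, 6 and 7 (edgeR adjusted p up to 0.0673).

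Further toward the end of S5, the gene of 9 exons at 39807593 to 39838972, the last tested member, averaged 20.6 ± 8.27 CPM in lymphoma and 43.2 ± 13.7 CPM in non-lymphoma blood (n = 7 each, ± SD; log2 fold change -1.07, edgeR adjusted p = 0.0126). A pair of low genes fell by a similar fold. The gene at 38183188 averaged 1.36 ± 0.56 CPM and 3.04 ± 1.24 CPM, and that at 38813255 averaged 1.46 ± 0.83 CPM and 3.27 ± 0.78 CPM (n = 7 each, ± SD), with log2 fold changes of -1.13 in both (edgeR adjusted p = 0.0417 and 0.0349). Both calls were lost when lymphoma replicate 2, 3 or 7 was left out, and likewise for non-lymphoma replicate 1, 2, 5 and 7. The first was also lost without lymphoma replicate 4 or 6, and the second without lymphoma replicate 5 or non-lymphoma replicate 6 (edgeR adjusted p up to 0.0838 and 0.0686).

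The most abundant members per exonic length did not all move. Levels were compared as TPM, the count per exonic length scaled to a fixed total, averaged over all libraries. The highest, at 435 TPM, was a gene of 18 exons at 38521103 to 38547018 that lies 6452 bases from ENSCAFG00000031003. It had 422 CPM, 485 CPM and 850 CPM in the lowest, median and highest lymphoma library, against 528 CPM, 838 CPM and 2057 CPM in non-lymphoma libraries, where replicate 7 stood alone. Its log2 fold change of -0.76 did not pass (edgeR adjusted p = 0.0787). Next came a gene of 2 exons at 33384630 to 33386885 with 272 TPM (log2 fold change -0.39, not passing, edgeR adjusted p = 0.462). The gene at 37652863, described above, had 155 TPM. The gene of 6 exons at 34275839 to 34282340 had 153 TPM (log2 fold change 0.048, edgeR adjusted p = 0.909). That of 17 exons at 11486649 to 11754607 had 136 TPM (log2 fold change 0.52, edgeR adjusted p = 0.182).

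The gene of 6 exons at 32220152 to 32230656 missed the threshold of edgeR (log2 fold change 0.94, SE 0.32, edgeR adjusted p = 0.0521) but passed relative to the chromosome (1.06, limma adjusted p = 0.0347). It had 3.49 CPM, 5.8 CPM and 12.1 CPM in the lowest, median and highest lymphoma library, against 2.08 CPM, 3.2 CPM and 5.82 CPM in non-lymphoma libraries. Its body overlaps that of 1 other annotated gene, with 0 genes overlapping its exons. Whether reads of the other gene add to its counts was not tested. That relative call was lost in the runs without lymphoma replicate 2, 5 and 7 and in those without non-lymphoma replicate 1, 5, 6 and 7.

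The 6 called members not described in full, the one at 28056239 included, were all lower, with log2 fold changes from -1.63 to -0.56 and edgeR adjusted p from 0.0196 to 0.046. Of these, 3 lay in S4. The other 77 tested members were not called and had log2 fold changes from -1.20 to 1.54, 50 of them within 0.5 of 0. Within groups, the median SD of log2 CPM over the tested members was 0.59 in lymphoma and 0.52 in non-lymphoma libraries, and 64 of 108 members (59.3%) varied more in lymphoma, as did 61.2% of all tested genes. Of 338 members 102 overlap the body of another annotated gene, and 28 overlap an exon of another gene. Another gene body is overlapped by 23 of the 108 tested members. Of the 26 called 1 does so, the first of the block of 6, at 37503052.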

How the data were processed

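Per the file headers, the deposited counts are raw read-pair counts over exons, summed by gene by the authors with featureCounts 2.0.1 on the Ensembl release 103 annotation of CanFam3.1, with no strand option. Other tools named per the submitters' processing notes are DESeq2, Subread 2.0.1 and HISAT2 2.2.1. The members and tests were chosen with earlier results of these data known.

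Counts were fitted over the whole table with edgeR 4.0.16 (quasi-likelihood F test, TMM factors, filterByExpr, group as the only term) in R 4.3.3, with Benjamini-Hochberg adjustment over 12836 genes at 0.05. Log2 CPM used a prior count of 2. Standard errors of edgeR fold changes were derived from its F statistic. Relative levels were fitted with limma 3.58.1 over 11929 multi-exon genes. Single values per library were compared by two-sided exact permutation over 3432 assignments, with a smallest p of 0.000583. Both fits and the level test were tried on simulated counts. With a simulated log2 difference of 1, edgeR called only 25 of 100 tested genes. With a difference of 2 it called 95 of 99, and 2 calls were false. The limma fit called 94 genes with the larger difference, and 7 calls were false. A simulated chromosome shift of 0.4 was found as 0.36 (adjusted exact permutation p = 0.0227), and 0 other chromosomes were called in that run. In the blood libraries 25 of 39 chromosomes passed in relative level. How the level test behaves where many chromosomes differ at once was not tested. A member without an edgeR call may still differ by the smaller amount, a log2 difference of 1.

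The rule for single genes took members with an average log2 CPM of at least 1. It kept up to 8 called rises, 8 called falls and 8 genes against the chromosome mean, the 5 highest in TPM, and up to 6 whose groups did not overlap. Genes with symbols on fixed lists could not be matched. No 2 libraries were near-identical (smallest chi-square per degree of freedom 52.9). The gene at 27406492, the run of 6 members and the S5 minus S2 difference were chosen after their values were seen. Alternatives covered scaling, filters, depth, tests, member rules, gene density and left-out libraries. Runs on fewer libraries applied the filter on low counts anew, so their tested members could differ.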

Additional observations from a re-analysis of the deposited data

Results flagged for a closer look

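Single libraries that stand apart were sought in 68 sets of 7 libraries, by the gap between the extreme library and its neighbour as a share of the range. About 1 in 20 sets, 3.4 here, would show one by chance, and 5 did. The sets share libraries and members and are not independent, so these numbers are not a test. Non-lymphoma replicate 7 had the highest relative level of chromosome 31 (gap share 0.602) and the highest percent of counts on members (gap share 0.576). It also had the highest level of the gene starting at 38521103 (gap share 0.634). Without it the difference in relative level was -0.10 and still passed (adjusted exact permutation p = 0.0486). Non-lymphoma replicate 2 had the highest relative level of the segment from 25 to 30 Mb (gap share 0.622). Lymphoma replicate 2 had the lowest level of the gene starting at 38183188 (gap share 0.697), a call that was lost without that library. The cause of these gaps was not tested.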

How the results depend on the processing

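The difference in mean level of chromosome 31 (-0.15) ranged from -0.21 to -0.14 with 1 library left out, and lost its call within the 5-digit libraries (-0.14), with a median over members (-0.20) and with the replicate block (-0.15, adjusted exact permutation p = 0.0938). The relative level ranged from -0.18 to -0.10 with 1 library left out. It lost its call within the 5-digit libraries (-0.082), with single-exon genes included (-0.10) and with the replicate block (-0.12, adjusted exact p = 0.141). Both kept their call but moved by over 1.5 times without a filter (mean level -0.25, relative level -0.063) and without overlapping members (-0.23 and -0.20), as did the relative level with a median over members (-0.22). With members before 35 Mb only, the mean level turned to 0.029 and the relative level to 0.056. Chromosome 31 minus chromosome 13 ranged from -0.35 to -0.23 with 1 library left out, and no longer passed within the 5-digit libraries (-0.15) or with members before 35 Mb only (-0.11). It moved to -0.16 without a filter and to -0.50 with a median over members, and passed in both. The call of the mean level held with each library left out, and directions held under the 3 other scalings.

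Members called higher (8) ranged from 5 to 10 with 1 library left out, and numbered 5 with upper-quartile factors, without a filter and without the 2 libraries with most genes detected (chosen after seeing the data), 1 at an adjusted p under 0.01, 0 within the 5-digit libraries and 2 with the replicate block. Members called lower (18) ranged from 12 to 21, and numbered 3 at 0.01, 1 within the 5-digit libraries and 6 with the block. DESeq2 called 33 members, 26 of them shared with the 26 of edgeR. Relatively higher members (10) ranged from 5 to 11, with 0 within the 5-digit libraries and 4 with the block. Relatively lower members (12) ranged from 8 to 15, with 1 within the 5-digit libraries, 7 with the block and 6 without the 2 libraries with most genes.

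Segments called higher (1) numbered 1 in each run with 1 library left out, and 0 without a filter, within the 5-digit libraries, with the block, with a median over members, with the density trend removed and with segments of 10 Mb. Segments called lower (1) ranged from 1 to 3 with 1 library left out. They numbered 2 with upper-quartile factors, without a filter, without overlapping members and with the density trend removed, 3 with runs of 15 members, and 0 within the 5-digit libraries, with the block and with a median over members. The segment from 10 to 15 Mb turned to -0.086 without a filter and -0.24 with a median over members, and that from 20 to 25 Mb to -0.11 without a filter, where members near 0 enter the mean. The segment from 25 to 30 Mb ranged from -0.14, where it passed without lymphoma replicate 3, to 0.050 with 1 library left out. It was -0.031 with upper-quartile factors, -0.10 without a filter, -0.050 at an average of at least 1 CPM, -0.015 after thinning, -0.0057 within the 5-digit libraries, -0.10 without overlapping members, -0.10 with a median, -0.066 with the density trend removed and -0.083 without the 2 libraries with most genes. The gene starting at 34275839, not called, turned to -0.0097 with upper-quartile factors, -0.019 without a filter and -0.10 within the 5-digit libraries, and ranged from -0.082 to 0.23 with 1 library left out. Except where stated above, the cause of these changes was not tested.

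The replicate number is shared only as a number. The deviations of same-numbered libraries from their group means correlated by -0.05 on average, 1 of 7 pairs was over 0.1, and 1 of 7 lymphoma libraries correlated best with its own number. Under the block, 8 members were called, all 8 among the 26. With sign flips within 7 pairs the smallest exact p is 0.0156 before adjustment.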
